A study of Mus musculus with 10 samples.

Results

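The cells described here were picked from livers carrying metastases by the transcripts of conventional type 1 dendritic cells (cDC1). A barcode, the tag that marks 1 droplet, was kept with at least 300 detected genes and at most 15% of its UMIs from mitochondrial genes. A UMI is a molecular tag counted once per captured transcript. A kept barcode counted as a gated cell where at least 2 of Xcr1, Clec9a, Wdfy4 and Cadm1 had a UMI, Xcr1 or Clec9a among them, and where Cd3e, Cd79a, Siglech and Fscn1 had none. Of 28039 barcodes, 27707 were kept and 525 were gated cells.

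Mice carried liver metastases of colorectal cancer origin and received a lentiviral vector (LV). The IFNa + aCTLA4 group (liver 22, n = 1, called the combination below) received the IFNa vector and an antibody against CTLA-4, the IFNa group (livers 18 and 23, n = 2) received the IFNa vector alone, and the Control group (livers 11 and 25, n = 2) received a control vector, so every group carried a vector. Single cells from each liver were sorted as viable by exclusion of the dye 7AAD, with no antibody, and sequenced as 1 gene expression library per liver with the 10x 3' v3.1 chemistry. The labels give neither strain, sex nor age, and do not state that livers are from separate mice. The p-values thus reflect the spread between these libraries, which could be technical. The study's title places the engineering in macrophages in vivo, and the promoter in the vector is not given in the sources used here.

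The cDC1 lineage depends on the transcription factors Irf8, Batf3 and Id2. Its cells take up dead cells through Clec9a, follow the chemokine Xcl1 through Xcr1, and use Wdfy4 to present engulfed antigen on MHC class I to CD8 T cells, a route called cross-presentation. In mouse tumour models they are known as a source of Cxcl9, Cxcl10 and Il12b and as cells that need type I interferon signalling for cross-priming. Type I interferons such as IFNa bind Ifnar1 and Ifnar2 and act through transcription factors, Stat2 and Irf9 among them, that bind a promoter element called ISRE.

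There were 85 gated cells in the combination, 147 and 168 in IFNa 18 and 23, and 107 and 18 in Control 11 and 25. Their summed UMIs numbered 1412255 in the combination, 2083096 and 2918040 in IFNa, and 1972649 and 345771 in Control, so Control 25 is the least precise library. The median UMI count per gated cell was 15692 in the combination, 12931 and 16065.5 in IFNa, and 16572 and 19276 in Control. Whole libraries held 10464216 to 69856071 UMIs, and no gated cell had a T cell receptor contig. Any pair of libraries shared 4 to 81 kept barcodes, none of them a gated cell in both. A score against simulated doublets marked 25 gated cells, namely 5 in the combination, 3 and 8 in IFNa, and 9 and 0 in Control.

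The markers went against the label for the larger side of the gated cells. Xcr1 was detected in 202 of 525 (38.5%), while 227 (43.2%) had Sirpa, a receptor of cDC2 and of myeloid cells that cDC1 are known to lack, without Xcr1. A further 96 had neither. The 227 Sirpa+ Xcr1- cells entered through Clec9a together with Wdfy4 or Cadm1. Of the 323 gated cells without Xcr1, 175 had a single Clec9a UMI (33.3% of all 525 gated cells). Xcr1+ cells with a single Clec9a UMI are not in that count. Over all libraries the summed Xcr1+ cells held Irf8 at 1838 CPM, counts scaled to a total of 1000000 UMIs, and Naaa, a lysosomal lipid amidase of cDC1, at 1053 CPM, against 231 and 154 CPM in the summed Sirpa+ Xcr1- cells. Tlr3, a sensor of double-stranded RNA, was detected in 158 of 202 Xcr1+ cells and 29 of 227 Sirpa+ Xcr1- cells, and Gcsam in 146 and 2. The myeloid genes ran the other way: Csf1r, the receptor for macrophage colony-stimulating factor, was detected in 52 of 202 Xcr1+ cells and 190 of 227 Sirpa+ Xcr1- cells, Zeb2 in 45 and 218, and Cybb, a subunit of the phagocyte oxidase, in 54 and 219. C1qa, a complement gene of macrophages, was in 11 Xcr1+ cells and 42 Sirpa+ Xcr1- cells. Median depth was close on the sides, at 17148 and 14585 UMIs per cell. The name cDC1 is therefore used below only for the lineage, and the cells are called gated, Xcr1+ or Sirpa+ Xcr1- cells.

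**Figure D1:**
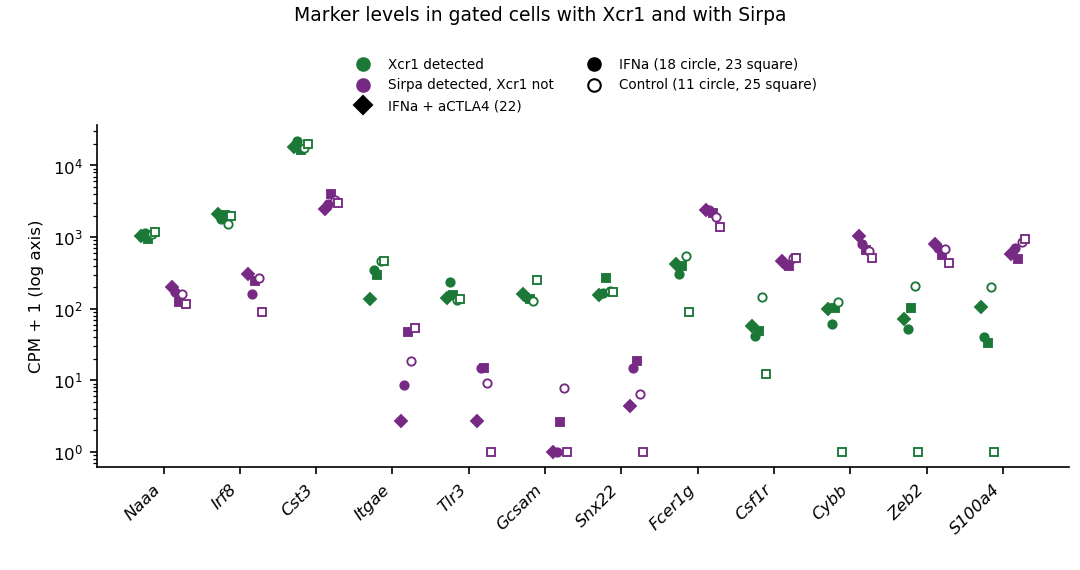
Level of 12 marker genes, as CPM + 1 on a log axis, in the Xcr1+ (green) and Sirpa+ Xcr1- (purple) gated cells, 1 point per library. Naaa, Irf8, Cst3, Itgae, Tlr3, Gcsam and Snx22 were higher in Xcr1+ cells of all 5 libraries, and Fcer1g, Csf1r, Cybb, Zeb2 and S100a4 in Sirpa+ Xcr1- cells of all 5 libraries.

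The mix of both sides varied between libraries, most within Control. Xcr1 was detected in 27 of 85 gated cells in the combination (31.8%), in 58 of 147 and 64 of 168 in IFNa (39.5% and 38.1%), and in 49 of 107 and 4 of 18 in Control (45.8% and 22.2%). Sirpa+ Xcr1- cells numbered 38 in the combination, 64 and 72 in IFNa, and 41 and 12 in Control. The Xcr1+ cells include 30 that also had Sirpa, at 3 in the combination, 4 and 9 in IFNa, and 14 and 0 in Control. A change in the summed counts below can come from a change within cells or from this mix, and these cannot be told apart in the sums, so values for both sides are given for some of the genes. In fits on Xcr1+ cells Control 25, with 4 such cells, was left out, so that Control is 1 library assumed to vary like the IFNa libraries, and the combination against Control is 1 library against 1. The counts and p-values of those fits therefore cannot be compared directly with those on Sirpa+ Xcr1- cells, which hold both Control libraries. Why the sides differ in them was not tested.

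The genes that the gate reads are given as levels only. Xcr1 (chromosome 9:123852315-123862029, minus strand, GRCm38) stood at 105 CPM in the combination, 196 and 130 CPM in IFNa, and 150.1 and 63.6 CPM in Control. Clec9a (chromosome 6:129408862-129424763, plus strand) had 249 CPM in the combination, 329 and 239 CPM in IFNa, and 276 and 214 CPM in Control. Wdfy4 had 761 CPM in the combination, 886 and 645 CPM in IFNa, and 1104 and 853 CPM in Control. Cadm1, an adhesion molecule of cDC1, had 80.0 CPM in the combination, 207 and 119 CPM in IFNa, and 249 and 127 CPM in Control. None of the 4 separated IFNa from Control, Xcr1 was lowest in Control 25, and Cadm1 was lowest in the combination. Of the cells just outside the gate, 279 failed only through Siglech, 85 only through Cd3e, 25 only through Cd79a and 12 only through Fscn1, and 132 had Xcr1 or Clec9a as their sole positive marker.

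Clec9a, 1 of the genes that the gate reads, was also counted in B cells. Gated cells were chosen by Xcr1 or Clec9a, and B cells by Cd79a, which the gate excludes. The high share in gated cells is thus set by the gate. The gap from B cells therefore does not test the gate against free transcripts in the droplets. With each cell thinned to 5000 UMIs, and shallower cells left out, Clec9a was detected in 61.0% of gated cells in the combination, 64.6% and 63.4% in IFNa, and 61.0% and 52.9% in Control. In B cells (Cd79a and Ms4a1 detected), which lack the gene, it was detected in 0.845% in the combination, 0.253% and 1.62% in IFNa, and 2.62% and 2.60% in Control. Those shares rest on 592 of 1229 B cells in the combination, 395 of 1378 and 308 of 720 in IFNa, and 191 of 673 and 77 of 134 in Control. Over all B cells, with no thinning, the median depth was 4885 UMIs in the combination, 4041 and 4612.5 in IFNa, and 3956 and 5404.5 in Control, and Clec9a was detected in 0.814% in the combination, 0.435% and 1.39% in IFNa, and 1.63% and 1.49% in Control.

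Gated cells made up 0.891% of kept barcodes in the combination (exact 95% interval 0.713 to 1.10), 2.37% (2.01 to 2.78) and 3.04% (2.60 to 3.52) in IFNa 18 and 23, and 1.91% (1.57 to 2.31) and 2.13% (1.27 to 3.34) in Control 11 and 25. The intervals cover counting error only. The mean share was 2.70 ± 0.471% in IFNa and 2.02 ± 0.152% in Control (SD, n = 2 each), a difference of 0.683 percentage points (exact permutation p = 0.333, two-sided, the smallest p that 2 against 2 libraries allow). The 2 IFNa libraries lay above both Control libraries and the combination lay below all 4. With every cell thinned to 2000 UMIs the share was 0.495% in the combination, 1.20% and 1.06% in IFNa, and 0.806% and 0.244% in Control. Sorting and dissociation can set such shares.

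**Figure D2:**
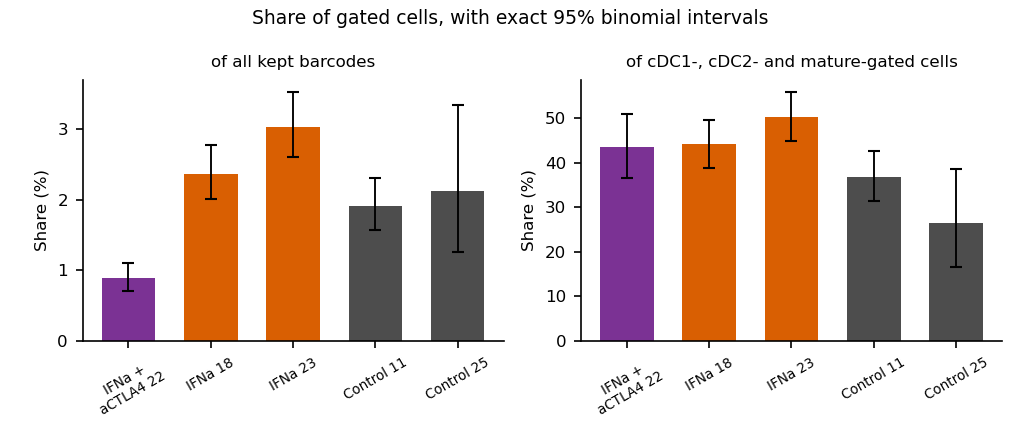
Gated cells as a share of all kept barcodes (left) and of the cells gated as cDC1, cDC2 or mature dendritic cells (right), in percent, 1 bar per library with its exact 95% binomial interval. The combination is lowest on the left at 0.891%, and Control 25 has the widest intervals.

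The gated cells were also counted against 2 other gates. The gate for cDC2 asked for Cd209a or Clec10a with another of Cd209a, Clec10a, Mgl2 and Flt3. It allowed no Xcr1, Clec9a, C1qa, Cd3e, Cd79a, Siglech or Fscn1. The gate for mature dendritic cells asked for Fscn1 and Ccr7, with no Cd3e, Cd79a or Siglech. These gates gave 464 and 231 cells. The cDC1 gate did not exclude C1qa, which was detected in 56 of its 525 cells. Of the cells in the 3 gates, 43.6% were in the cDC1 gate in the combination, 44.1% and 50.3% in IFNa, and 36.9% and 26.5% in Control. With no thinning IFNa and Control did not overlap, and the means differed by 15.5 percentage points (exact permutation p = 0.333, the smallest possible). With cells thinned to 2000 UMIs the groups overlapped, at 30.8% in the combination, 39.0% and 35.9% in IFNa, and 36.8% and 7.69% in Control, the last from 2 of 26 cells. The difference was then 15.2 points (exact permutation p = 0.667). The cDC2-gated cells numbered 54 in the combination, 102 and 99 in IFNa, and 167 and 42 in Control, and the mature cells numbered 56 in the combination, 84 and 67 in IFNa, and 16 and 8 in Control.

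The leading difference between groups was a rise of interferon-stimulated genes in the gated cells under IFNa, with and without anti-CTLA-4. UMIs were summed per library and tested with edgeR over 10818 genes. In IFNa against Control 237 genes passed an adjusted p of 0.05 (2.19%), of which 212 were higher (1.96%) and 25 lower (0.231%). In the combination against Control 301 passed (2.78%), 261 higher (2.41%) and 40 lower (0.37%). Counts from the gene lists below stand beside these shares over all genes. Both comparisons use the same Control libraries, and the 1 combination library is assumed to vary like the others. Without Control 11 the IFNa comparison gave 135 genes higher and 77 lower.

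Of 59 type I interferon-stimulated genes listed, 55 passed the filter on low counts. Of these 55, 52 were higher in IFNa than in Control and none lower, with a median log2 fold change of 1.94 beside 0.01 over all genes tested, and 53 were higher in the combination, with a median of 2.07 beside -0.02. The genes short of the threshold in IFNa were Ifit1bl1, Samhd1 and Epsti1. Leaving out 1 library at a time left 46 to 51 higher in IFNa.

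Isg15, a ubiquitin-like protein (chromosome 4:156199424-156200818, minus strand, GRCm38), stood at 1626 CPM in IFNa + aCTLA4 22, 1205 and 1349.5 CPM in IFNa 18 and 23, and 181 and 338 CPM in Control 11 and 25. It had a UMI in 83 of 85 gated cells of the combination, in 140 of 147 and 166 of 168 in IFNa, and in 57 of 107 and 7 of 18 in Control. Every treated library lay above both Control libraries, with Control 25 the higher of these. The log2 fold change was 2.41 with SE 0.27 and edgeR adjusted p = 0.0022 in IFNa against Control and 2.79 with SE 0.30 and edgeR adjusted p = 0.0014 in the combination against Control.

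Promoters of 4 genes are shown because the interferon targets moved together in these cells and the ISRE can be read in them. Isg15, Ifit3 and Ifi205 passed the test in IFNa, and Cxcl10, described further on, did not. The runs are the 250 bases before the start site in RefSeq's tables (GRCm38.p6), 5' to 3' on the gene's strand, with matches to GAAANNGAAA or to its reverse complement TTTCNNTTTC in capitals, overlapping matches included. They are Isg15 (chr4:156200819-156201068, minus strand), Ifit3 (chr19:34583279-34583528, plus strand), Ifi205 (chr1:174031756-174032005, minus strand) and Cxcl10 (chr5:92348890-92349139, minus strand).
Isg15: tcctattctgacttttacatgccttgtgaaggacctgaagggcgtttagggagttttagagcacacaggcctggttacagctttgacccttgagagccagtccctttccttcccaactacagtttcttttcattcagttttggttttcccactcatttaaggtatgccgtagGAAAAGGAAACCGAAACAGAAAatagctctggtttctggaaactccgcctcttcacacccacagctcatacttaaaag
Ifit3: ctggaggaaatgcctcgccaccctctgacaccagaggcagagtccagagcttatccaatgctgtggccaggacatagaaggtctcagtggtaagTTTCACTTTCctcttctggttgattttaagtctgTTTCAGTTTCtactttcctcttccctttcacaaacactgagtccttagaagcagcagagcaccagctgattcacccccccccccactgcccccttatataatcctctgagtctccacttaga
Ifi205: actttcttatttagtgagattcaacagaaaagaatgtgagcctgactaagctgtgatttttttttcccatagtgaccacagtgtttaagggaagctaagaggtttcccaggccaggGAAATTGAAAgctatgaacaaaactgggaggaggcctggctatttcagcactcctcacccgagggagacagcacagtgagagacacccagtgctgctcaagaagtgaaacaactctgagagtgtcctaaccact
Cxcl10: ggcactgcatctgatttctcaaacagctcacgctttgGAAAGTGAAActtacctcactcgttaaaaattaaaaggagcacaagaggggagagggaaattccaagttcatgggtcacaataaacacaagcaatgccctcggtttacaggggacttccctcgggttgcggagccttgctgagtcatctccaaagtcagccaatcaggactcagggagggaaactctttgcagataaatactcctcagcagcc

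The capitals begin 78 bases before the start of Isg15, where 3 matches overlap, at 156 and 122 bases before that of Ifit3, at 134 before that of Ifi205 and at 213 before that of Cxcl10. Over windows of 250 bases before to 50 after the start, the motif was in 943 of 27025 promoters (3.49%) and in 302 of the 8550 matched to genes tested (3.53%). It was in 42 of the 163 promoters matched to genes higher in IFNa (25.8%), in 0 of 20 matched to genes lower in IFNa, and in 22 of 44 on the type I list (50.0%). The gamma-activated motif TTCNNNGAA was in 8.47% of all promoters, in 7.02% of those of genes tested, in 14 of 163 of those higher in IFNa (8.59%), in 2 of 20 of those lower and in 7 of 44 on the type I list (15.9%). A match is only a run of letters and says nothing of binding.

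Ifit3, an antiviral protein that binds viral RNA in complexes with its relatives, had 206 CPM in IFNa + aCTLA4 22, 246 and 198 CPM in IFNa 18 and 23, and 14.7 and 14.5 CPM in Control 11 and 25. The treated libraries lay close together, far above both Control libraries (log2 fold change 3.94 with SE 0.25 and edgeR adjusted p = 8.4e-07, in IFNa). Irf7, a transcription factor behind the amplified second phase of interferon release, had 1821 CPM in IFNa + aCTLA4 22, 1240.0 and 1213 CPM in IFNa 18 and 23, and 184 and 202 CPM in Control 11 and 25. Its log2 fold change was 2.72 with SE 0.17 and edgeR adjusted p = 8.4e-07 in IFNa and 3.32 with SE 0.19 and edgeR adjusted p = 5.2e-07 in the combination.

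Ly6a, a surface protein induced by interferon in many mouse cells, had 3067 CPM in IFNa + aCTLA4 22, 1714 and 2034 CPM in IFNa 18 and 23, and 159 and 86.8 CPM in Control 11 and 25. The combination was highest and Control 25 lowest, with no overlap (log2 fold change in IFNa 3.86 with SE 0.26 and edgeR adjusted p = 3.8e-05; in the combination, where the gene was chosen after its values were seen, 4.61 with SE 0.29 and edgeR adjusted p = 1.6e-05). Among the other genes of large change in IFNa were Ifi44 (log2 fold change 4.09), Slfn4 (4.89), Rsad2 (3.75), Ifit2 (3.58), Oasl1 (3.21), Ifi213 (3.76), Oas1g (3.21) and Usp18 (2.95), all past the edgeR threshold. Rsad2 is the antiviral enzyme viperin, Oasl1 and Oas1g belong to the oligoadenylate synthetases, and Usp18 removes Isg15 and damps Ifnar2. Gm4951, an interferon-induced GTPase, had 147 CPM in the combination, 47.0 and 74.7 CPM in IFNa and 2.03 and 0 CPM in Control, and its call in IFNa was lost without Control 11. Ifit3 and Ifit3b, the Oas1 genes and the Ifi20x family have close copies, so reads can be split between them.

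The share of each cell's UMIs on the type I list had a median of 2.06% in the combination, 1.81% and 1.71% in IFNa, and 0.462% and 0.337% in Control. The value of 1.36% is the 95th percentile of Control cells. It was passed by 68 of 85 cells in the combination (80.0%), by 102 of 147 (69.4%) and 114 of 168 (67.9%) in IFNa, and by 6 of 107 (5.61%) and 1 of 18 (5.56%) in Control. Most gated cells of each treated liver thus lay above nearly all Control cells.

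On each side of the gate the median of this share was higher in every treated library than in both Control libraries. In Xcr1+ cells it lay under the 1.36% line in IFNa 18 and just above it in IFNa 23. Among Xcr1+ cells the median was 1.65% in the combination, 1.17% and 1.38% in IFNa, and 0.433% and 0.355% in Control, and among Sirpa+ Xcr1- cells it was 2.87% in the combination, 2.44% and 2.03% in IFNa, and 0.569% and 0.410% in Control. In the Xcr1+ cells alone 30 of 54 listed genes were higher in IFNa (median log2 fold change 1.63) and 37 of 54 in the combination (2.08), where Control 25 had only 4 cells and dropped out of the fit. In the Sirpa+ Xcr1- cells it was 48 of 55 (1.85) and 53 of 55 (2.13). These counts come from fits of unequal size, and the difference between the sides was not tested. Isg15 in the Xcr1+ cells had 1462 CPM in the combination, 829 and 1306 CPM in IFNa, and 113 and 56.3 CPM in Control.

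**Figure D3:**
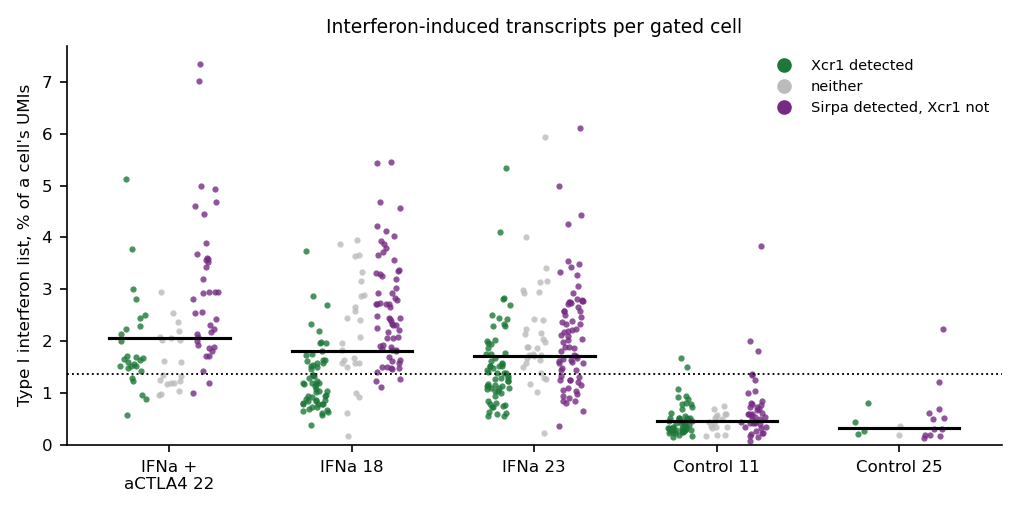
Percent of each gated cell's UMIs on the type I interferon list, 1 point per cell in 5 libraries, coloured by Xcr1 and Sirpa. Black bars are library medians (2.06% in the combination, 1.81% and 1.71% in IFNa, 0.462% and 0.337% in Control) and the dotted line is the Control 95th percentile of 1.36%.

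Among the genes of interferon signalling, Stat2, a transcription factor of the ISRE-binding complex, had 334 CPM in IFNa + aCTLA4 22, 292 and 289 CPM in IFNa 18 and 23, and 91.2 and 83.9 CPM in Control 11 and 25. Every treated library lay above both Control libraries (log2 fold change 1.75 with SE 0.18 and edgeR adjusted p = 6.8e-05, in IFNa; 1.98 with SE 0.21 and edgeR adjusted p = 4.6e-05, in the combination). Ifnar1, a chain of the receptor for IFNa, had 95.6 CPM in the combination, 85.9 and 84.3 CPM in IFNa and 77.1 and 104 CPM in Control, and the groups overlapped (edgeR adjusted p = 1 in IFNa). The cytosolic nucleic acid sensors Ifih1, Ddx58, Dhx58 and Zbp1, also on the type I list, were higher, with log2 fold changes in IFNa of 1.81, 1.81, 1.59 and 1.97 and edgeR adjusted p of 7.7e-05, 1.6e-04, 5.1e-04 and 7.7e-05. With Tlr9 they made 5 of 27 sensors higher and none lower in either comparison with Control. The share higher over all genes tested was 1.96% in IFNa and 2.41% in the combination. Tlr3, the endosomal RNA sensor that marks cDC1, had 72.2 CPM in the combination, 118 and 78.5 CPM in IFNa and 75.0 and 63.6 CPM in Control (edgeR adjusted p = 0.56 in IFNa).

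Genes that respond mainly to interferon gamma were higher for some members. Of 22 tested, 6 were higher in IFNa (median log2 fold change 1.64) and 11 in the combination (2.65), and none was lower. The 6 in IFNa are GTPases of the Gbp and Irg families, which act against intracellular pathogens. Tgtp2 had 185 CPM in IFNa + aCTLA4 22, 99.4 and 104 CPM in IFNa 18 and 23, and 13.7 and 11.6 CPM in Control 11 and 25 (log2 fold change 2.97 with SE 0.24 and edgeR adjusted p = 8e-06, in IFNa). Gbp5 had 236 CPM in IFNa + aCTLA4 22, 50.4 and 86.7 CPM in IFNa 18 and 23, and 25.9 and 8.68 CPM in Control 11 and 25, and the combination stood above both IFNa libraries (log2 fold change over Control 3.49 with SE 0.45 and edgeR adjusted p = 0.011). Its call was lost without either Control library.

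No gene of that list passed in the combination against IFNa, where the median was 1.14. The counts leaned on single libraries: in IFNa 16 passed without IFNa 18 and 3 of 21 without the combination, and in the combination 19 passed without IFNa 18 or without IFNa 23. On the Sirpa+ Xcr1- cells 6 of 22 passed in IFNa and 17 in the combination.

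Cxcl9 and Cxcl10, chemokines that draw Cxcr3-bearing T cells, are on the same list and did not pass. Cxcl9 (chromosome 5:92321347-92328079, minus strand) had 819 CPM in IFNa + aCTLA4 22, 146 and 530.1 CPM in IFNa 18 and 23, and 97.8 and 2.89 CPM in Control 11 and 25. It was detected in 43 of 85 gated cells of the combination, 18 of 147 and 51 of 168 in IFNa, and 8 of 107 and 1 of 18 in Control. The treated libraries lay above Control in level, with a wide spread within each group (log2 fold change 2.36 with SE 1.43 and edgeR adjusted p = 0.84, in IFNa; 3.66 with SE 1.60 and edgeR adjusted p = 0.65, in the combination). Cxcl10 had 449 CPM in IFNa + aCTLA4 22, 146 and 175 CPM in IFNa 18 and 23, and 51.7 and 0 CPM in Control 11 and 25 (log2 fold change 2.12 with SE 0.94 and edgeR adjusted p = 0.75, in IFNa; 3.63 with SE 1.04 and edgeR adjusted p = 0.48, in the combination). Among 13 chemokines only Ccl7 passed in IFNa, at 8.16 and 24.0 CPM beside 1.01 and 0 CPM in Control (edgeR adjusted p = 0.038), and none passed in the combination. No cytokine among 15 tested passed. Il15, which sustains CD8 T cells and NK cells, had 43.9 CPM in the combination, 58.6 and 29.1 CPM in IFNa and 19.8 and 5.78 CPM in Control (edgeR adjusted p = 0.44 in IFNa). Il12b had 0 CPM in the combination, 50.4 and 19.9 CPM in IFNa, and 8.11 and 0 CPM in Control, and in IFNa 18 a single cell held 99.0% of its UMIs.

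Some genes of MHC class I presentation were higher under IFNa. Of 31 class I and cross-presentation genes, 10 were higher in IFNa and 15 in the combination, and none was lower (medians 0.46 and 0.92). H2-K1, a classical class I heavy chain (chromosome 17:33996017-34000347, minus strand), had 2365 CPM in IFNa + aCTLA4 22, 1975 and 2399 CPM in IFNa 18 and 23, and 949 and 821 CPM in Control 11 and 25. The treated libraries were all above Control, and the log2 fold change was 1.34 with SE 0.17 and edgeR adjusted p = 3.2e-04 in IFNa and 1.49 with SE 0.20 and edgeR adjusted p = 4.1e-04 in the combination. H2-Q7, a nonclassical class I gene, had 408 CPM in IFNa + aCTLA4 22, 304 and 366 CPM in IFNa 18 and 23, and 77.6 and 69.4 CPM in Control 11 and 25 (log2 fold change 2.20 with SE 0.19 and edgeR adjusted p = 1.4e-05, in IFNa). H2-Q4, H2-Q6, H2-T22, H2-T23, H2-D1, B2m, Tapbp and Nlrc5 also passed in IFNa. The H2-Q and H2-T genes are near copies of each other, and reads may be split between them.

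B2m, the light chain of class I, had 2101 CPM in the combination, 1979 and 2205 CPM in IFNa and 1192 and 966 CPM in Control (log2 fold change 0.99 with SE 0.17 and edgeR adjusted p = 0.0044, in IFNa). H2-D1 had 3197 CPM in the combination, 2557 and 2736 CPM in IFNa and 1562 and 1385 CPM in Control (log2 fold change 0.88 with SE 0.16 and edgeR adjusted p = 0.0061, in IFNa), and that call was lost without IFNa 23. Tap1, which carries peptides into the endoplasmic reticulum, had 459 CPM in the combination, 335 and 339.9 CPM in IFNa and 264 and 148 CPM in Control, apart in level but short of the threshold in IFNa (log2 fold change 0.68 with SE 0.24 and edgeR adjusted p = 0.32) and in the combination (1.16 with SE 0.28 and edgeR adjusted p = 0.067). Without Control 11 the Tap1 edgeR adjusted p was 0.011 in IFNa. Tap2, Tapbpl, Psmb9, Psmb10 and Psme2 passed in the combination. In the Xcr1+ cells 3 of 31 passed in IFNa and 5 in the combination, with medians of 0.34 and 0.51, and H2-K1 had a log2 fold change of 0.76 in IFNa (edgeR adjusted p = 0.09).

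For class II, 0 of 12 genes passed in IFNa or in the combination, with medians of 0.16 and 0.18. H2-Ab1, a class II beta chain, had 5813 CPM in IFNa + aCTLA4 22, 5069 and 6608 CPM in IFNa 18 and 23, and 5020.2 and 4682 CPM in Control 11 and 25 (log2 fold change 0.31 with SE 0.17 and edgeR adjusted p = 0.66, in IFNa). Ciita, the class II transactivator, had 253 CPM in the combination, 237 and 238 CPM in IFNa and 259.6 and 228 CPM in Control, and the groups overlapped (log2 fold change -0.01 with SE 0.17 and edgeR adjusted p = 1, in IFNa). The class II share of each cell's UMIs had a median of 4.35% in the combination, 4.06% and 4.97% in IFNa, and 4.28% and 4.34% in Control.

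**Figure D4:**
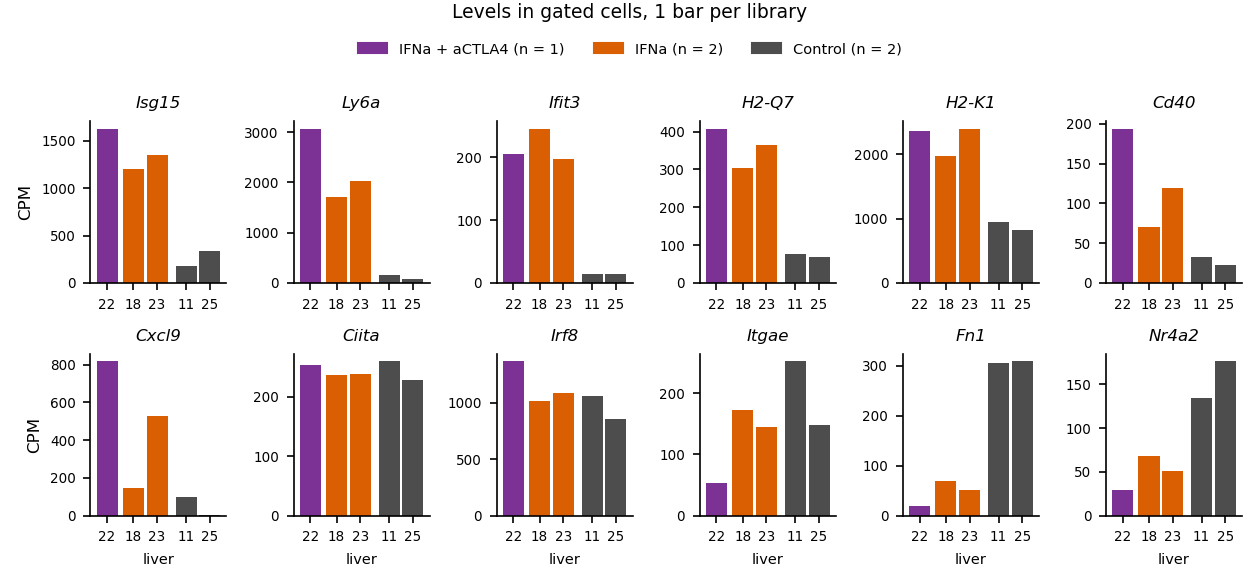
Level of 12 genes in the gated cells in CPM on linear axes from 0, 1 bar per library (combination 22, IFNa 18 and 23, Control 11 and 25). Isg15, Ly6a, Ifit3, H2-Q7, H2-K1 and Cd40 are higher in the 3 treated libraries, Fn1 and Nr4a2 lower, and Ciita and Irf8 overlap between IFNa and Control.

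Maturation genes were higher for a few members. Of 21 costimulation and maturation genes tested, 4 were higher in IFNa (Cd40, Ccr7, Marcksl1 and Traf1, median 0.60) and 8 in the combination (median 0.43), with none lower. Over all genes tested 1.96% were higher in IFNa and 2.41% in the combination. Cd40, the receptor through which helper T cells license dendritic cells, had 194 CPM in IFNa + aCTLA4 22, 70.6 and 119.6 CPM in IFNa 18 and 23, and 33.0 and 23.1 CPM in Control 11 and 25. The combination was highest and both Control libraries lowest (log2 fold change 1.68 with SE 0.30 and edgeR adjusted p = 0.019, in IFNa; 2.73 with SE 0.34 and edgeR adjusted p = 0.0013, in the combination). Without Control 11 or without Control 25 neither Cd40 call held, and the IFNa count was then 1 gene. Traf1, an adaptor of Cd40 and related receptors, had 215 CPM in the combination, 107 and 134 CPM in IFNa and 66.4 and 63.6 CPM in Control (log2 fold change 0.92 with SE 0.20 and edgeR adjusted p = 0.026, in IFNa; 1.78 with SE 0.23 and edgeR adjusted p = 3.1e-04, in the combination). Its IFNa call was lost without IFNa 23, Control 11 or Control 25, without marked doublets (edgeR adjusted p = 0.068), with 3 of the 4 markers and with DESeq2. Marcksl1 had 236 CPM in the combination, 115 and 170.3 CPM in IFNa and 56.3 and 28.9 CPM in Control (log2 fold change 1.59 with SE 0.29 and edgeR adjusted p = 0.027, in IFNa), and that call was lost without either Control library.

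Relb, Nfkb2, Birc3 and Icam1, all of the NF-kB pathway or its targets, passed in the combination, with Nfkb2 at a log2 fold change of 1.60 with SE 0.24 and edgeR adjusted p = 0.0014. Cd86, a ligand of CD28 and CTLA-4, had 393 CPM in the combination, 333 and 401 CPM in IFNa and 252 and 211 CPM in Control, apart in level but short of the threshold (log2 fold change 0.68 with SE 0.18 and edgeR adjusted p = 0.077, in IFNa). Cd80, the other such ligand, had 36.1 CPM in the combination, 37.0 and 37.4 CPM in IFNa and 39.5 and 60.7 CPM in Control (edgeR adjusted p = 0.89 in IFNa). Cd274, the PD-1 ligand PD-L1, had 255 CPM in the combination, 89.3 and 167 CPM in IFNa and 41.6 and 109.9 CPM in Control, with IFNa and Control overlapping (log2 fold change 1.08 with SE 0.68 and edgeR adjusted p = 0.83, in IFNa). Lgals9, a ligand of Tim-3, was the inhibitory gene that passed upward of 16 tested, with a log2 fold change of 1.12 with SE 0.18 and edgeR adjusted p = 0.0024 in IFNa and 1.32 with SE 0.21 and edgeR adjusted p = 0.0016 in the combination.

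Ccr7, which guides dendritic cells to lymph nodes, had 69 UMIs in 4 cells of the combination, 55 and 70 UMIs in 3 and 6 cells of IFNa, and 0 UMIs in Control. Against a floor of 3 counts over the Control group that is at least 37.8-fold higher in the combination and at least 19.5-fold higher in IFNa. Fscn1, a marker of mature dendritic cells, was required to be 0, and with cells carrying Fscn1 allowed the edgeR adjusted p was 0.15 for the combination and 0.67 for IFNa.

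Some genes of cDC1 identity passed the test. Of 32 tested, none of them read by the gate, Ifi205 was higher and Nfil3 lower in IFNa, and Ifi205 was higher and Itgae and Hepacam2 lower in the combination, with medians of 0.02 and -0.01. Over all genes tested 2.19% passed in IFNa and 2.78% in the combination. The calls of this list are too few to be read as a difference from those shares. Irf8 had 1370.1 CPM in IFNa + aCTLA4 22, 1014 and 1092 CPM in IFNa 18 and 23, and 1066 and 862 CPM in Control 11 and 25, IFNa lying beside Control 11 (log2 fold change 0.16 with SE 0.17 and edgeR adjusted p = 0.89, in IFNa). Batf3 had 161 CPM in the combination, 166 and 143 CPM in IFNa and 182 and 109.9 CPM in Control and Naaa had 605 CPM in the combination, 655 and 489.7 CPM in IFNa and 705 and 437 CPM in Control, and neither separated the groups (edgeR adjusted p = 1 and 1 in IFNa). Ifi205, an interferon-inducible gene long used as a mouse cDC1 transcript, had 1179.7 CPM in IFNa + aCTLA4 22, 770.0 and 809 CPM in IFNa 18 and 23, and 509 and 390.4 CPM in Control 11 and 25 (log2 fold change 0.83 with SE 0.17 and edgeR adjusted p = 0.02, in IFNa; 1.44 with SE 0.20 and edgeR adjusted p = 7.4e-04, in the combination). Its IFNa call was lost without IFNa 18 or IFNa 23, and in Xcr1+ cells the log2 fold change was 0.67 (edgeR adjusted p = 0.16).

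Itgae, the integrin chain CD103 of tissue and migratory cDC1 (chromosome 11:73090583-73147446, plus strand), had 52.4 CPM in IFNa + aCTLA4 22, 172 and 145 CPM in IFNa 18 and 23, and 252 and 148 CPM in Control 11 and 25. It was detected in 16 of 85 gated cells of the combination, 46 of 147 and 60 of 168 in IFNa, and 51 of 107 and 6 of 18 in Control. The combination lay below the 4 other libraries, while IFNa overlapped Control (log2 fold change -1.93 with SE 0.33 and edgeR adjusted p = 0.0091, in the combination; -0.37 with SE 0.23 and edgeR adjusted p = 0.76, in IFNa). In the Xcr1+ cells alone it stood at 134 CPM in the combination, 351 and 291 CPM in IFNa, and 455 and 461 CPM in Control, the last from 4 cells. Against IFNa the log2 fold change was -1.56 with SE 0.32 and edgeR adjusted p = 0.16, and with any 1 of the 4 other libraries left out the edgeR adjusted p was 0.00076 to 0.023. Nfil3, a regulator of early cDC1 commitment, had 43.9 CPM in the combination, 30.2 and 24.7 CPM in IFNa and 62.9 and 133 CPM in Control (log2 fold change -1.63 with SE 0.34 and edgeR adjusted p = 0.049, in IFNa). That call was lost without the combination in the fit, with RLE scaling, with 3 of the 4 markers and without marked doublets (edgeR adjusted p = 0.15). It was also lost on Sirpa+ Xcr1- cells (edgeR adjusted p = 0.26).

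Receptors and uptake genes changed singly. Of 19 receptors of growth factors, cytokines and chemokines 3 were higher in IFNa, and 3 were higher and 1 lower in the combination, and of 19 uptake genes 1 was higher and 2 lower in each comparison. Over all genes tested 1.96% were higher and 0.231% lower in IFNa, and 2.41% higher and 0.37% lower in the combination. Il2rg had 326 CPM in the combination, 185 and 229 CPM in IFNa and 98.9 and 119 CPM in Control. Il2rg, the shared chain of receptors for Il2, Il15 and related cytokines, had a log2 fold change of 1.01 with SE 0.19 and edgeR adjusted p = 0.011 in IFNa and 1.69 with SE 0.22 and edgeR adjusted p = 4e-04 in the combination. The IFNa call was lost without IFNa 23 or Control 11, with 3 of the 4 markers and with DESeq2. Cx3cr1, the fractalkine receptor, was lower in the combination (log2 fold change -1.28 with SE 0.30 and edgeR adjusted p = 0.03), and without Control 11 or without marked doublets that call was lost. Lrp1, a scavenger receptor for dead cells, had 36.8 CPM in IFNa + aCTLA4 22, 80.6 and 72.0 CPM in IFNa 18 and 23, and 155 and 139 CPM in Control 11 and 25 (log2 fold change -0.93 with SE 0.18 and edgeR adjusted p = 0.013, in IFNa; -1.94 with SE 0.26 and edgeR adjusted p = 4.3e-04, in the combination). Control was above every treated library, and the IFNa call was lost without IFNa 23, without Control 11, without marked doublets (edgeR adjusted p = 0.1), with 3 of the 4 markers and with DESeq2. Havcr2, the receptor Tim-3, had 74.3 CPM in the combination, 158 and 151 CPM in IFNa and 194 and 142 CPM in Control (log2 fold change -1.15 with SE 0.25 and edgeR adjusted p = 0.022, in the combination). That call was lost without Control 11, with 3 of the 4 markers, with DESeq2 and on Sirpa+ Xcr1- cells.

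The Fc receptors split: Fcgr1, the high-affinity receptor for IgG, was higher in IFNa (log2 fold change 1.62 with SE 0.19 and edgeR adjusted p = 1.6e-04), and Fcgr3 and Fcgr2b were lower (-1.15 and -0.79, edgeR adjusted p = 0.0041 and 0.026). The call of Fcgr3 was lost without IFNa 18 or Control 11 and with 3 of the 4 markers. That of Fcgr2b was lost without IFNa 18, IFNa 23 or Control 11, without marked doublets and with DESeq2. Both were lost on Sirpa+ Xcr1- cells. All 3 receptors are myeloid genes, and Fcgr1 was detected in 48 of 202 Xcr1+ cells and 194 of 227 Sirpa+ Xcr1- cells.

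Both sides of the gate are set side by side for several of these genes. In IFNa against Control the log2 fold change was 1.16 in Xcr1+ cells and 2.77 in Sirpa+ Xcr1- cells for H2-Q7. It was 0.50 in Xcr1+ cells and 0.99 in Sirpa+ Xcr1- cells for B2m, and 0.42 in Xcr1+ cells and 1.01 in Sirpa+ Xcr1- cells for H2-D1. For the maturation gene Cd40 it was 3.33 in Xcr1+ cells and 1.32 in Sirpa+ Xcr1- cells. Lrp1 had -2.74 in Xcr1+ cells and -0.67 in Sirpa+ Xcr1- cells (edgeR adjusted p = 0.2 on the Sirpa+ Xcr1- cells), and Fcgr1 had 0.36 and 1.61. Stat2, at 1.68 and 1.68, and Irf7, at 2.67 and 2.69, were close on both. Sirpa was also detected in 28.6% of the Xcr1+ cells of Control 11, the only Control library in their fit. In the Xcr1+ cells of IFNa 18 and 23 it was detected in 6.90% and 14.1%. The part of these cells in the Xcr1+ values was not tested, nor was the difference between the sides.

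**Figure D5:**
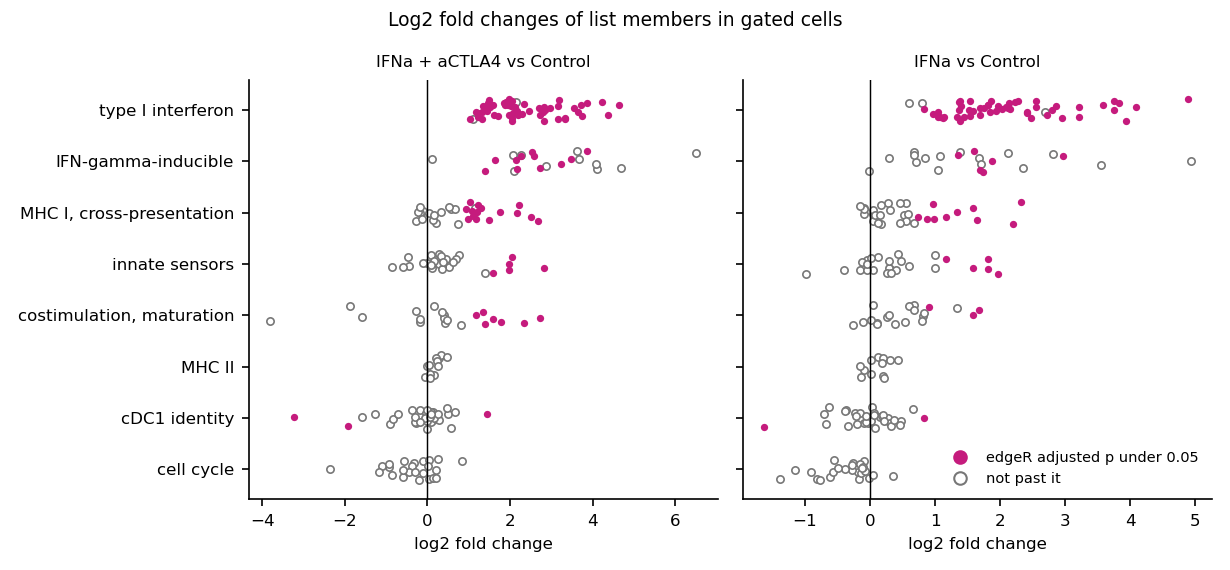
Log2 fold changes of listed genes in the combination against Control (left) and in IFNa against Control (right), 1 point per gene tested, filled where the edgeR adjusted p was under 0.05. The type I interferon row lies to the right of 0 in both panels (52 of 55 filled in IFNa, 53 of 55 in the combination), and the class II row holds no filled point. Ccr7, at 0 in Control, is left out.

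Genes lower in treated livers were fewer. Fn1, the matrix protein fibronectin (chromosome 1:71585520-71653200, minus strand), had 19.8 CPM in IFNa + aCTLA4 22, 70.1 and 51.1 CPM in IFNa 18 and 23, and 305 and 309 CPM in Control 11 and 25. It was detected in 6 of 85 gated cells of the combination, 16 of 147 and 22 of 168 in IFNa, and 31 of 107 and 5 of 18 in Control, and the groups did not overlap (log2 fold change -2.31 with SE 0.20 and edgeR adjusted p = 1.1e-05, in IFNa; -3.87 with SE 0.31 and edgeR adjusted p = 4.4e-06, in the combination). In Control 25 a single cell held 55.1% of its UMIs. Nr4a2, an orphan nuclear receptor and early response gene, had 29.0 CPM in IFNa + aCTLA4 22, 68.2 and 50.7 CPM in IFNa 18 and 23, and 135 and 176 CPM in Control 11 and 25 (log2 fold change -1.31 with SE 0.21 and edgeR adjusted p = 0.0029, in IFNa; -2.30 with SE 0.30 and edgeR adjusted p = 4e-04, in the combination). Fos had 1332 CPM in the combination, 921 and 841 CPM in IFNa and 1339.8 and 1894 CPM in Control (log2 fold change -0.82 with SE 0.18 and edgeR adjusted p = 0.026, in IFNa), and without IFNa 18, IFNa 23 or Control 25 its call was lost. Lyz2, the lysozyme of myeloid cells, had 2339.5 CPM in the combination, 1317 and 862 CPM in IFNa and 2574 and 2132 CPM in Control (log2 fold change -1.07 with SE 0.21 and edgeR adjusted p = 0.026, in IFNa), and without IFNa 23 or either Control library its call was lost. In gated cells with Naaa and without Sirpa, Fn1 had a log2 fold change of 3.07 and Lyz2 of 0.12 in IFNa, opposite in sign and not past the threshold (edgeR adjusted p = 0.95 and 1).

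Markers of monocytes moved in both directions. Of 10 monocyte markers Ly6c2 and Fcgr1 were higher and Vcan lower in both comparisons. The list's median log2 fold change was -0.35 in IFNa, with 4 of the 10 above 0. In the combination it was -0.25, with 3 of the 10 above 0. Ly6c2, the monocyte antigen Ly6C, had 2309 CPM in IFNa + aCTLA4 22, 1854 and 1159 CPM in IFNa 18 and 23, and 231 and 257 CPM in Control 11 and 25 (log2 fold change 2.68 with SE 0.23 and edgeR adjusted p = 8.4e-05, in IFNa), and without either Control library its call was lost. The summed monocyte list stood at 3534 CPM in the combination, 3244 and 2279 CPM in IFNa, and 1870 and 2004 CPM in Control. Ly6c2 is part of that sum and makes up most of it in each treated library. Vcan had 0 CPM in the combination and Fcgr4 0 CPM in Control 25. The summed list of 10 macrophage markers stood at 663 CPM in the combination, 1038 and 2248 CPM in IFNa, and 1935 and 205 CPM in Control, where Clec4f and Vsig4 were at 0 in both. The part of these markers in the results was not tested.

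Transcripts of other cells reached the top of the IFNa list through a few cells. Wfdc2, a secreted protein of epithelia, had 0 CPM in the combination, 33.1 and 77.1 CPM in IFNa and 1.01 and 0 CPM in Control, from 69 UMIs in 3 cells and 225 UMIs in 6 cells of IFNa and 2 UMIs in Control. Gzmb, the protease of cytotoxic lymphocytes, had 4.25 CPM in the combination, 73.4 and 32.9 CPM in IFNa and 1.01 and 0 CPM in Control, from 153 UMIs in 6 cells and 96 UMIs in 7 cells of IFNa and 2 UMIs in Control. Their fitted log2 fold changes, which rest on those few Control UMIs, were 5.94 with SE 0.83 and edgeR adjusted p = 0.013, and 5.85 with SE 0.79 and edgeR adjusted p = 0.0081, and both calls were lost without either Control library. The 8 epithelial markers summed to 7.08 CPM in the combination, 109 and 231 CPM in IFNa, and 11.2 and 2.89 CPM in Control, and 7 of the 8 were at 0 in Control 25. The 9 NK markers summed to 91.3 CPM in the combination, 481 and 338 CPM in IFNa, and 96.8 and 5.78 CPM in Control, with 7 of the 9 at 0 in Control 25. Their part in the results was not tested, and without the 25 cells marked as doublets the Gzmb log2 fold change was 3.87 (edgeR adjusted p = 0.31) and that of Wfdc2 5.34 (3.1e-05).

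Few genes passed the threshold between the combination, with 1 library, and IFNa, with 2. With so few libraries a low count does not show that the antibody changed little. In the combination against IFNa 13 of 10818 genes passed (0.12%), 10 higher (0.0924%) and 3 lower (0.0277%), while 617 had an unadjusted p under 0.05. C3, the central complement protein, had 189.8 CPM in IFNa + aCTLA4 22, 47.0 and 54.5 CPM in IFNa 18 and 23, and 41.6 and 46.3 CPM in Control 11 and 25, and the combination stood alone above the others (log2 fold change 1.93 with SE 0.21 and edgeR adjusted p = 5.5e-04). The C3 log2 fold change was 0.87 in Xcr1+ cells (edgeR adjusted p = 0.76) and 2.12 in Sirpa+ Xcr1- cells (8.4e-04), and its call was lost with 3 of the 4 markers. Actn1, an actin cross-linker, had 36.1 CPM in IFNa + aCTLA4 22, 123 and 145 CPM in IFNa 18 and 23, and 156 and 107 CPM in Control 11 and 25, the combination standing below the others (log2 fold change -1.86 with SE 0.29 and edgeR adjusted p = 0.013), a call lost with 3 of the 4 markers, with Fscn1 allowed and on either side alone. None of the 55 type I genes passed, and their median was 0.27 beside -0.02 over all genes. For Cd40 the log2 fold change was 1.05 with SE 0.29 and edgeR adjusted p = 0.36. Without IFNa 18 or IFNa 23 the count was 65 or 70, and without Control 11 or Control 25 it was 29 or 26. Arg1, an enzyme of arginine breakdown in myeloid cells, had 0.708 CPM in the combination, 82.1 and 37.7 CPM in IFNa and 60.8 and 57.8 CPM in Control, from 1 UMI in the combination, so that the fitted size is no bound. It was lower in the combination than in Control (log2 fold change -6.20 with SE 1.05 and edgeR adjusted p = 0.034), and that call was lost without either Control library, on either side alone and without marked doublets (edgeR adjusted p = 0.62).

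Immunoglobulin segments led the combination's list. Igkv4-59 had 211 UMIs in 39 of 85 gated cells of the combination and 0 UMIs in the 4 other libraries, at least 115-fold higher than Control against a floor of 3 counts over that group. A single cell held 77.7% of those UMIs, and the rest of that library held the segment at 7080 CPM. Ighv1-66, Igkv3-2 and Igkv1-110 had 131, 111 and 91 UMIs in the combination, more than 90% of each in 1 cell, and 0 UMIs elsewhere. The 9 B cell and plasma cell markers summed to 169 CPM in the combination, 128 and 114 CPM in IFNa, and 96.8 and 145 CPM in Control, and Fcmr was at 0 in all 5. Most of that sum was Ighm, the IgM heavy chain, at 100.5 CPM in the combination, 114 and 106 CPM in IFNa, and 89.2 and 136 CPM in Control. Igkc, the kappa light chain, was at 41.8 CPM in the combination, 0 and 0.685 CPM in IFNa, and 0 CPM in both Control libraries. Jchain, which joins secreted IgM and IgA, was at 20.5 CPM in the combination, 0.48 and 0.343 CPM in IFNa, and 0 and 2.89 CPM in Control. Igkc and Jchain were the 2 of 4 tested markers higher in the combination than in Control. The part of other cells in this was not tested.

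The effect of IFNa in the gated cells was compared with that in the cDC2 and mature gates by a test of the difference itself. Against cDC2-gated cells 22 of 10587 genes differed (0.208%), 17 with the larger log2 fold change in the cDC1 gate (0.161%) and 5 with the smaller (0.0472%), and 15 of the 22 had a group at 0. Ifi205 rose less in the cDC1 gate, at 789 CPM in IFNa and 450 CPM in Control, than in the cDC2 gate, at 372 CPM in IFNa and 58.9 CPM in Control (difference of log2 fold changes -1.79 with SE 0.33 and edgeR adjusted p = 0.048). The call was lost without Control 11, without Control 25 and without marked doublets.

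Against mature dendritic cells 17 of 10587 genes differed (0.161%), 7 with the larger log2 fold change in the cDC1 gate (0.0661%) and 10 with the smaller (0.0945%), and with RLE scaling 10 and 7. The median difference over all genes was -0.28 with TMM scaling and -0.10 with RLE scaling, so differences are read against that shift. H2-Q7 rose more in the cDC1 gate, at 335 CPM in IFNa and 73.5 CPM in Control, than in mature cells, at 905 CPM in IFNa and 683 CPM in Control (difference of log2 fold changes 1.66 with SE 0.25 and edgeR adjusted p = 0.0015). The call held without marked doublets (edgeR adjusted p = 0.011) and was lost without Control 11 (0.22), which left 8 mature cells in Control. Without Control 11 the counts of differing genes were 9 against cDC2-gated cells and 2 against mature cells.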

How the data were processed

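Single-cell RNA was measured in 5 gene expression libraries, 1 per liver, in 3 groups. The deposited matrices hold UMI counts, whole numbers per gene and barcode for 32285 genes, not normalized, per the file headers and values. Cell Ranger 7.0.1 and the build mm10 are named in the submitters' processing notes. Gene positions are from GENCODE (GRCm38) and promoters from RefSeq (GRCm38.p6).

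Cells were chosen by the gate given at the start of the results. Counts of the gated cells were summed per library, and libraries with fewer than 5 such cells were dropped from a fit. The sums were tested with edgeR 4.0.16 (TMM scaling, filterByExpr, robust quasi-likelihood test, 3 groups in 1 fit) in R 4.3.3, with Benjamini-Hochberg adjustment over all genes tested and a threshold of 0.05. Differences of the IFNa effect between gated classes were tested with edgeR in a fit with the library as a block, without the genes that any gate reads. CPM is counts scaled to a total of 1000000 summed UMIs. Shares have exact Clopper-Pearson intervals of 95%, and were compared by exact permutation tests. Intervals and floors (3 counts) cover counting error only. Doublets were scored against simulated pairs at 0.8% per 1000 barcodes (30 neighbours, 30 components, 1500 genes) and kept in the main values. Python 3.11.15, scikit-learn 1.9.0, scipy 1.17.1 and DESeq2 1.42.0 were also used.

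On data simulated for IFNa against Control over 10454 genes, 65% of genes changed 2-fold and 100% of genes changed 4-fold were recovered, with 7 false among 172 calls. The changed genes were drawn only from those of higher mean level. Counts varied by the fitted dispersion alone, with no difference in the mix of cells. The recovery of genes of low level, or of wide spread between libraries such as Cxcl9, is therefore not given by these values.

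The gated cells, gene lists and tests were chosen with earlier results of these data known. Genes were named as up to 15 each way in IFNa against Control, up to 5 each way in each comparison of the combination, up to 4 each way per list and up to 5 per class difference (adjusted p under 0.05, ordered by size, for the first 3 kinds with 50 CPM or more and libraries that do not overlap), plus genes of cDC1 function whatever their result. Ly6a, Cd40 and Irf7 in further comparisons, and genes of other lists named without values, were named after their values were seen. Alternatives were other scaling, no filter on low counts, stricter barcodes (500 genes, 10% mitochondrial), 3 of the 4 markers, Fscn1 allowed, doublets removed, cells with a T cell receptor contig removed, DESeq2, IFNa and Control libraries alone, and each library left out. Fits on Xcr1+ cells, on Sirpa+ Xcr1- cells and on cells with Naaa and without Sirpa were added after seeing the data. Results for some genes are not reported here.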

Additional observations from a re-analysis of the deposited data

Results flagged for a closer look

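The test of the difference itself picked out genes whose response to IFNa differed between gated classes. Against cDC2-gated cells it gave 22 genes. The differences of log2 fold changes were 12.062 for Gpx2, 8.235 for Clu, 12.401 for Cdkn2a, 13.312 for Asprv1 and 13.857 for Cpe. All but Clu had a group at 0, so that the fitted size depends on the prior count and is no bound, and Clu stood at 20.8 CPM in IFNa and 0.253 CPM in Control in the cDC1 gate, and at 1.82 CPM in IFNa and 8.66 CPM in Control in the cDC2 gate. The calls of Gpx2, Clu, Cdkn2a and Asprv1 were lost without Control 11 and without marked doublets, and Cpe was not tested in those settings. The epithelial marker sums given above differed between the same groups, and the part of such cells was not tested.

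Against mature dendritic cells the test gave 17 genes. The differences were 1.6625 for H2-Q7, 1.6886 for H2-Q6, 3.2003 for Creb5, -9.9538 for Mpeg1 and -10.189 for Fcgr3. H2-Q6 stood at 176 CPM in IFNa and 30.9 CPM in Control in the cDC1 gate, and at 711 CPM in IFNa and 465 CPM in Control in mature cells. Creb5 stood at 48.8 CPM in IFNa and 14.1 CPM in Control in the cDC1 gate, and at 44.2 CPM in IFNa and 142 CPM in Control in mature cells. Mpeg1 and Fcgr3 had 0 UMIs in the mature cells of Control, so their fitted sizes are no bounds. Without Control 11 all 5 calls were lost. Without marked doublets those of H2-Q6 (edgeR adjusted p = 0.1), Mpeg1 and Fcgr3 were lost, without Control 25 those of H2-Q6 and Fcgr3, and without IFNa 23 that of H2-Q6.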

How the results depend on the processing

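With 18 cells in Control 25 and 1 combination library, depth limits what can be called. The share differences between IFNa and Control kept their direction under every alternative run, at 0.350 to 1.02 percentage points of kept barcodes and 10.3 to 20.8 points of the cells in the 3 gates with 1 library left out. Stricter barcodes and removal of cells with a T cell receptor contig left the same 525 cells and so test nothing of the gene results. Stricter barcodes did change the number of kept barcodes, and the difference in that share was then 0.709 percentage points.

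The counts of genes in IFNa against Control, the combination against Control and the combination against IFNa moved as follows. With no filter they were 459, 520 and 150, with 3 of the 4 markers 87, 116 and 0 (464 at an unadjusted p under 0.05), in Xcr1+ cells 93, 132 and 6, and in cells with Naaa and without Sirpa 98, 82 and 3. DESeq2 gave 133, 180 and 14. The combination against IFNa gave 21 without doublets, 21 with Fscn1 allowed and 22 in Sirpa+ Xcr1- cells. With 1 library left out the ranges were 187 to 293, 312 to 401 and 26 to 70. The difference from cDC2-gated cells gave 83 genes with no filter, 2 without doublets and 9 to 47 with 1 library left out, and that from mature cells gave 77, 2 and 2 to 72. Fewer cells enter the stricter gates, and otherwise the cause was not tested.

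Of 1740 alternative values for 132 named results, leaving out the settings with the same cells, 1434 kept their direction and their side of the threshold, 262 lost the call, 33 gained it and 11 changed sign. None of the 11 was a call in the other direction. The lost calls given beside single genes in the results are not all of the 262. In cells with Naaa and without Sirpa the log2 fold change in IFNa was 0.13 for Emp1, 3.07 for Fn1, 0.12 for Lyz2, 0.63 for Tmem176a and 1.67 for Tmem176b, and Cxcl10 was -1.43 in the combination against Control and -3.42 against IFNa. With 3 of the 4 markers Cxcl10 was -0.15 against Control and -0.86 against IFNa. Itgae in IFNa was 0.072 in Sirpa+ Xcr1- cells and ranged over -0.65 to 0.15 with 1 library left out, the highest without Control 11. The cause was not tested. No paired analysis was possible because the livers of the groups carry different numbers.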

Other observations

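Other lists in the gated cells had few calls. Of 18 cathepsin and lysosome genes none passed in IFNa or in the combination (medians 0.19 and 0.06 in log2 fold change), and of 24 cell cycle genes none passed (medians -0.27 and -0.31). Of 20 death and survival genes Casp4, an inflammatory caspase, was the 1 higher in each, a share near that over all genes tested (1.96% higher in IFNa and 2.41% in the combination), with medians of 0.25 and 0.49. Casp4 had 72.2 CPM in the combination, 46.6 and 56.9 CPM in IFNa and 18.2 and 14.5 CPM in Control. Its log2 fold change was 1.61 with SE 0.27 and edgeR adjusted p = 0.004 in IFNa, and 2.11 with SE 0.31 and edgeR adjusted p = 9e-04 in the combination. The IFNa call was lost without Control 11, with 3 of the 4 markers and with DESeq2.

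Of 22 immediate early and stress genes Fos was lower in IFNa, while in the combination the chaperones Hspa1a and Hspa8 were higher (log2 fold changes 1.66 and 0.80, edgeR adjusted p = 0.0016 and 0.028) and Egr1, Ier3 and Nr4a1 lower (-1.69, -1.72 and -1.34, edgeR adjusted p = 0.0025, 0.0023 and 0.0049). These genes respond to dissociation, and its part was not tested.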
